A study of Homo sapiens with 12 samples.

Results

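SPRY2, SPRY4, DUSP4, DUSP5 and DUSP6 encode inhibitors of the ERK pathway whose transcription ERK itself drives, and they were followed through 4 treatments of a human melanoma cell line. The genes were chosen by symbol, as the rows of the deposited array table that carry these 5 names. They make up 5 of 14599 named genes, and each was measured by 1 probe set. The line, Hs695T, was sampled 24 h after treatment on single-colour Affymetrix arrays, 3 per group and 12 in all. Group DT received the BRAF inhibitor dabrafenib at 100 nM with the MEK inhibitor trametinib at 10 nM. Group E received entinostat, which blocks class I histone deacetylases, at 1 µM. Group DTE received all 3 agents at those doses, and group DMSO received the vehicle. Sample titles speak of biological replicates and the series description of technical ones, so p-values measure only the spread between these arrays of 1 cell line. Of 7 melanocyte lineage genes with a named row, S100B and SOX10 were brighter than 99.6% and 96.1% of genes in DMSO arrays, whereas the pigment genes MLANA, TYR and TYRP1 were brighter than 15.5%, 10.9% and 8.06%. MITF and the pigment gene PMEL lay between, at 44.5% and 44.2%. The fibroblast genes DCN and LUM were brighter than 3.42% and 3.93%, 4 keratin genes than 31.8% at most, the endothelial gene VWF than 27.1% and CD68 than 83.7%.

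In the ERK pathway, receptor tyrosine kinases switch on RAS, which activates RAF kinases, which phosphorylate MEK, which phosphorylates ERK. Active BRAF mutants keep this cascade running in many melanomas. ERK induces genes that dampen it in turn. Sprouty proteins (SPRY2, SPRY4) act upstream, between receptors and RAF, while dual-specificity phosphatases (DUSPs) remove the activating phosphates from ERK. DUSP6 is cytoplasmic and prefers ERK, DUSP5 is nuclear and prefers ERK, and DUSP4 is nuclear and acts on ERK and JNK. Because these transcripts are short-lived and depend on ERK, their levels are widely used as a readout of the pathway.

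The sequences before the transcription starts of SPRY2, SPRY4 and DUSP6 are shown because these 3 were the most lowered of the 5 in DT and in DTE against DMSO. They are the 250 bases upstream of a RefSeq start (GRCh38.p14, all on the minus strand, written 5′ to 3′ along the gene), at chr13:80341127-80341376 for SPRY2, chr5:142324248-142324497 for SPRY4 and chr12:89352502-89352751 for DUSP6. Capitals mark matches on either strand to CCGGAA, a core bound by ETS factors, and to TGACG, part of a cyclic AMP response element.
SPRY2: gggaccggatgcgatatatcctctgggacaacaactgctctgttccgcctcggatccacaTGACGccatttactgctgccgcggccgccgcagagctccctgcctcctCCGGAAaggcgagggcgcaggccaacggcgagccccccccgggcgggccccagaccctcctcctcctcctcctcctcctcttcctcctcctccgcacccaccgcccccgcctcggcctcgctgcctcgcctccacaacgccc
SPRY4: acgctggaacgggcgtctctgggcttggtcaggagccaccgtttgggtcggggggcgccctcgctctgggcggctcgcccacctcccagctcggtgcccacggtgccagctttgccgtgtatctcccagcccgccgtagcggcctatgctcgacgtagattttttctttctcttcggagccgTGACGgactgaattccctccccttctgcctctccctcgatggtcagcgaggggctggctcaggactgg
DUSP6: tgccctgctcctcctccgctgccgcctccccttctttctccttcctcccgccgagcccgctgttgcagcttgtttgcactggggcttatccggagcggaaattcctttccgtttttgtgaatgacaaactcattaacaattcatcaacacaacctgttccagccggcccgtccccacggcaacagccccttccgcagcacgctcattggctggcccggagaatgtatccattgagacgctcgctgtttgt
The SPRY2 sequence held TGACG 190 bases and CCGGAA 142 bases before the start, counted from the 5′ end of each match. It belongs to the outermost of 3 RefSeq starts of SPRY2, and the windows of the other 2 starts held neither. The SPRY4 sequence held TGACG only, 68 bases before the start, and the DUSP6 sequence held neither. TGACG stood in 21.2% and CCGGAA in 14.5% of 35116 upstream windows of the same length. None of the 3 sequences held the AP-1 site TGANTCA (6.57% of windows) or a CArG box (1.16%), the site of serum response factor. GC content was 70.4% for SPRY2, 65.6% for SPRY4 and 57.2% for DUSP6. A match is a run of letters and not a shown binding site. DUSP4 and DUSP5 are given by name only.

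Most genes were dimmer in the groups given the MAPK inhibitors, so each change below was set beside the change of all genes. Array medians were 37.5 to 40.8 in DT, 48.3 to 51.6 in E, 33.3 to 39.9 in DTE and 50.6 to 57.6 in DMSO. They were taken over all probe sets, named or not, while shares of dimmer genes are over the named genes only. Changes are log2 differences of deposited intensity ± limma standard error (3 arrays per group). A gene rose or fell where its limma p, adjusted by Benjamini-Hochberg over all 14599 genes, was under 0.05. The quantile value is the same difference after all arrays were given 1 common distribution. Median changes over all genes were -0.48 for DT, -0.20 for E and -0.72 for DTE against DMSO, and -0.00, -0.04 and -0.04 after quantile normalization. In whole-culture RNA, fewer expressing cells and less RNA per cell cannot be told apart.

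The first comparison asked what BRAF and MEK inhibition did to the feedback genes. All 5 fell in DT against DMSO, in a comparison in which 69.1% of genes passed, 66.2% lower and 2.97% higher. Both Sprouty genes and DUSP6 fell to under 5% of their DMSO level, while DUSP4 was 6.66-fold lower and DUSP5 fell to 37.2%. The arrays of the groups overlapped for none of the 5 genes, nor for 71.1% of all genes. The median change of the 5 was -4.52, against -0.48 for all genes (quantile -3.80 against -0.00).

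SPRY4 had intensities of 36.1, 32.2 and 34.0 in DT arrays, against 2459, 2098 and 2363 in DMSO arrays. It was thus among the brightest genes of vehicle cells and below the median of every DT array. The difference was -6.08 ± 0.12, or 67.6-fold (adjusted p = 1.2e-14, quantile -5.47). SPRY2, which shares with SPRY4 a cysteine-rich Sprouty domain, had 22.4, 22.1 and 30.5 in DT arrays, against 757, 683 and 722 in DMSO arrays. Replicate 3 was the highest DT array and still far below the lowest DMSO array. The difference was -4.87 ± 0.12 (adjusted p = 1e-13, quantile -4.13).

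Among the phosphatases, DUSP6 had 25.1, 20.1 and 18.7 in DT arrays, against 494, 487 and 478 in DMSO arrays, where it hardly varied. It differed by -4.52 ± 0.17 (adjusted p = 1.3e-11, quantile -3.80). DUSP4 kept more of its signal, with 116, 124 and 96.4 in DT arrays, against 809, 678 and 753 in DMSO arrays. Its difference was -2.74 ± 0.12 (adjusted p = 3.2e-11, quantile -1.96), and every DT array stayed above that array's median. DUSP5 was the dimmest of the 5 in vehicle cells, though above the median of every DMSO array, with 39.5% to 44.4% of named genes dimmer. It had 24.0, 23.9 and 20.8 in DT arrays, against 73.2, 52.9 and 59.9 in DMSO arrays. It differed by -1.43 ± 0.15 (adjusted p = 5.8e-07, quantile -1.01). Of all genes, 0 fell further than SPRY4, 2 further than SPRY2, 5 further than DUSP6, 45 further than DUSP4 and 613 further than DUSP5.

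**Figure D1:**
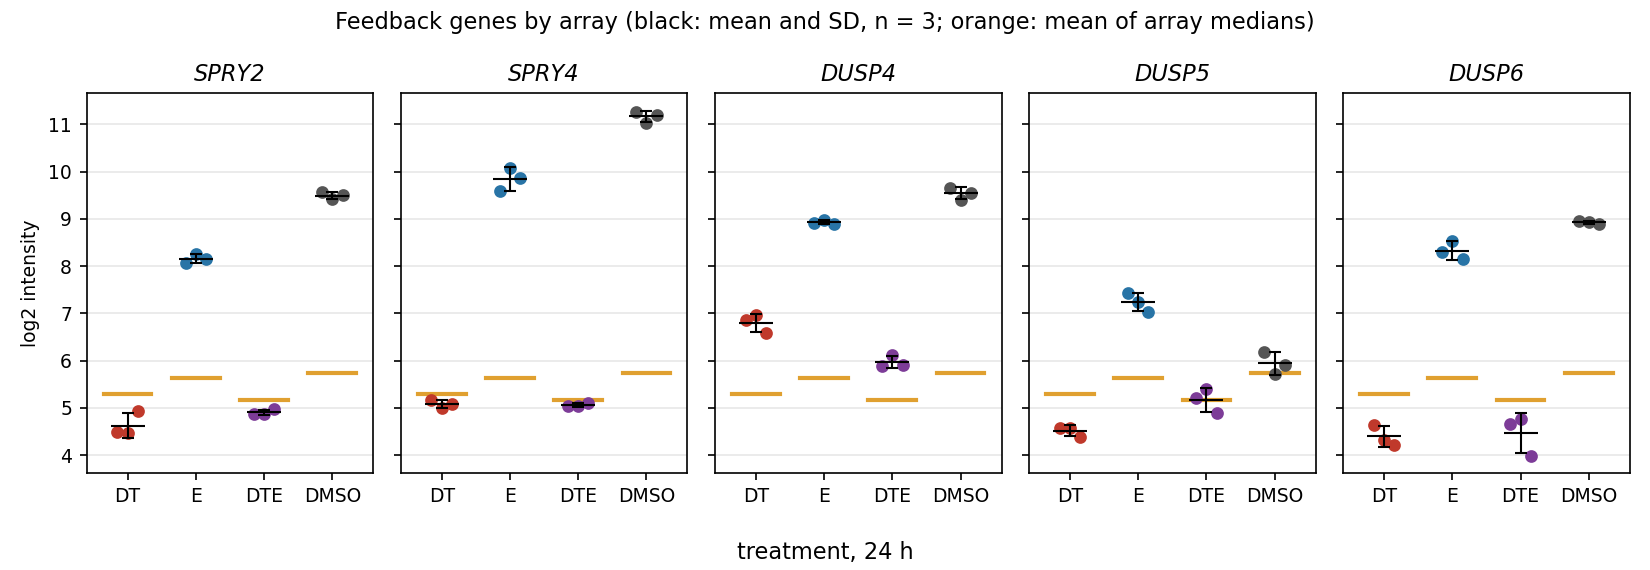
Log2 intensity of the 5 genes on each of 12 arrays (points), by treatment (DT, dabrafenib and trametinib; E, entinostat; DTE, all 3 agents; DMSO, vehicle). Black bars show the mean and SD of 3 arrays and orange lines the mean of the array medians. SPRY2, SPRY4 and DUSP6 sit low in DT and DTE, DUSP4 is lower in DTE than in DT, and DUSP5 is highest in E.

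The second comparison asked what histone deacetylase inhibition alone did. SPRY2, SPRY4, DUSP4 and DUSP6 fell in E against DMSO and DUSP5 rose, in a comparison in which 47.5% of genes passed, 37.2% lower and 10.4% higher. The arrays of E and DMSO did not overlap for any of the 5, nor for 55.4% of all genes. The Sprouty genes fell to about 40% of vehicle (39.7% for SPRY2, 39.9% for SPRY4) and DUSP4 and DUSP6 to 65.3% and 66.1%, while DUSP5 went up to 245% of vehicle. The median change was -0.61, against -0.20 for all genes (quantile -0.24 against -0.04).

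SPRY4 had 766, 1081 and 933 in E arrays, all below the DMSO arrays given above. It differed by -1.33 ± 0.12 (adjusted p = 3.2e-07, quantile -1.09), with the widest spread of the E values on the linear scale. SPRY2 had 268, 305 and 285 in E arrays and differed by -1.33 ± 0.12 as well (adjusted p = 3.1e-07, quantile -0.95). The Sprouty genes thus fell by the same amount to 2 decimals on the deposited scale. DUSP4 had 480.4, 502 and 477 in E arrays and differed by -0.61 ± 0.12 (adjusted p = 0.00036, quantile -0.24). DUSP6 had 313, 372 and 285 in E arrays and differed by -0.60 ± 0.17 (adjusted p = 0.009). After quantile normalization the fall of DUSP6 was -0.20 and did not pass (adjusted p = 0.38), so its call rests on the deposited scale. DUSP5, the nuclear ERK phosphatase, had 171, 152 and 131 in E arrays, each above every DMSO array. It differed by 1.29 ± 0.15 (adjusted p = 3e-06, quantile 1.41), and 199 genes had a larger rise.

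**Figure D2:**
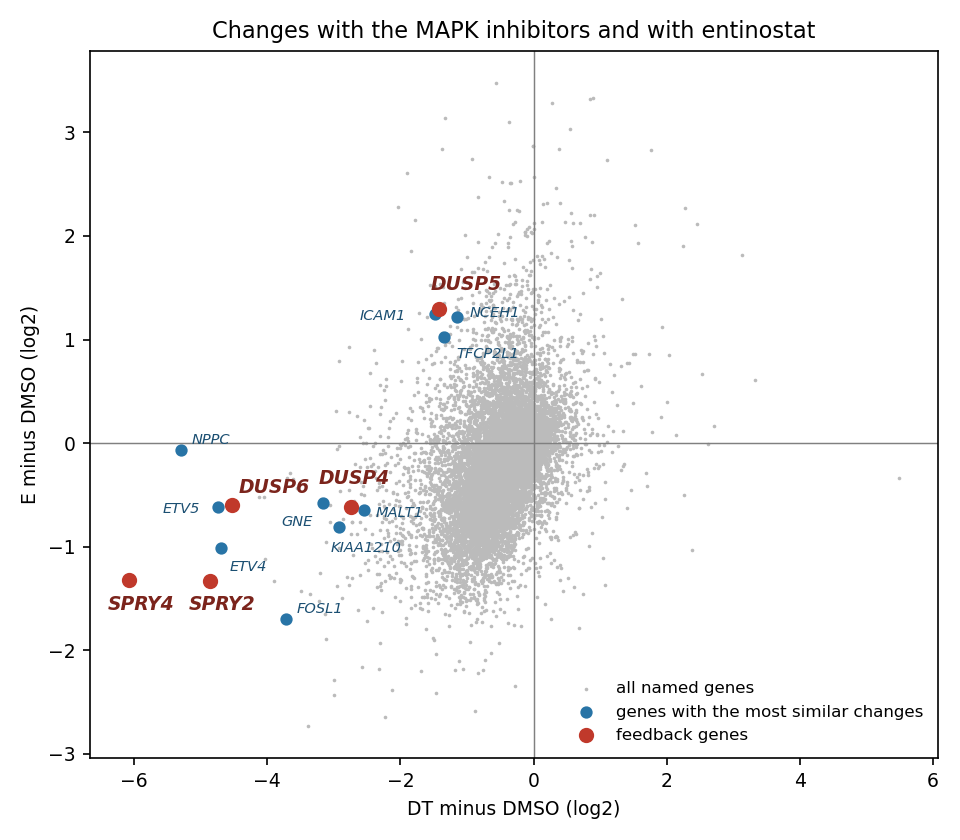
Log2 change in DT (x axis) and in E (y axis), both against the same 3 DMSO arrays, for all named genes (grey), the 5 feedback genes (red) and the genes with the most similar changes to each (blue). DUSP5 is the only red point above 0 on the y axis, at 1.29, and the other 4 lie between -1.33 and -0.60.

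The third set of comparisons asked where the feedback genes stood when all agents were given. All 5 fell in DTE against DMSO, where 78.6% of genes passed, 74.3% lower and 4.38% higher. SPRY4 stood at 1.45% of vehicle, SPRY2 at 4.16%, DUSP6 at 4.56%, DUSP4 at 8.42% and DUSP5 at 58.7%. The median change was -4.45, against -0.72 for all genes (quantile -3.62 against -0.04). The changes in DT, E and DTE are measured against the same DMSO arrays and are not independent of each other.

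SPRY4 had 32.9, 33.1 and 34.4 in DTE arrays, within the range of the DT arrays, and differed from DMSO by -6.10 ± 0.12 (adjusted p = 1.4e-14, quantile -5.38). SPRY2 had 29.3, 29.3 and 31.4 in DTE arrays and differed by -4.59 ± 0.12 (adjusted p = 4.1e-13, quantile -3.73). DUSP6 had 25.2, 27.2 and 15.9 in DTE arrays, spanning the DT arrays on both sides, and differed by -4.45 ± 0.17 (adjusted p = 7.4e-12, quantile -3.62). DUSP4 had 59.2, 69.5 and 59.8 in DTE arrays, below every DT array, and differed by -3.57 ± 0.12 (adjusted p = 1.8e-12, quantile -2.48). DUSP5 had 36.9, 42.5 and 29.9 in DTE arrays, between the DT and the DMSO arrays. It differed from DMSO by -0.77 ± 0.15 (adjusted p = 0.00019), and the fall did not pass after quantile normalization (-0.17) or after subtraction of array medians (-0.20).

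Adding entinostat to the MAPK inhibitors moved DUSP4 and DUSP5 past the threshold, in opposite directions. SPRY2 passed only under some of the alternatives listed at the end. Of the 5 feedback genes 1 was lower, 1 was higher and 3 did not pass. The share that passed was no larger than that of all genes. In DTE against DT, DUSP4 fell further and DUSP5 rose, in a comparison in which 49.3% of genes passed, 40.6% lower and 8.68% higher. DUSP4 differed by -0.83 ± 0.12 (adjusted p = 1.9e-05, quantile -0.52) and DUSP5 by 0.66 ± 0.15 (adjusted p = 0.0015, quantile 0.85). DTE arrays did not overlap DT arrays for either gene, nor for 54% of all genes. The 3 genes with the largest falls in DT did not pass. SPRY4 differed by -0.03 with a 95% interval of -0.28 to 0.23, and DUSP6 by 0.07 with an interval of -0.30 to 0.44. SPRY2 differed by 0.28 with an interval of 0.02 to 0.54 (adjusted p = 0.071), and it passed after quantile normalization (0.41), after median subtraction (0.41) and without DT replicate 3 (0.43), and at the same 0.28 without the dimmest 40% of genes and with trend and robust variance. A p that misses the threshold does not show that DTE and DT were alike.

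Adding the MAPK inhibitors to entinostat lowered all 5 genes. In DTE against E, 73.3% of genes passed, 72.6% lower and 0.644% higher (median -0.54). The 5 had differences of -4.78 ± 0.12 (SPRY4), -3.86 ± 0.17 (DUSP6), -3.25 ± 0.12 (SPRY2), -2.96 ± 0.12 (DUSP4) and -2.06 ± 0.15 (DUSP5). DUSP5, which E had raised, was 23.9% of its E level in DTE. DTE and E arrays did not overlap for any of them, nor for 71.8% of all genes, and the calls held after quantile normalization, with a median of -2.78 against -0.00 for all genes. In DT against E, where 46.7% of genes passed, 39.4% lower and 7.25% higher (median -0.23), all 5 were likewise lower in DT. The differences ran from -4.75 ± 0.12 for SPRY4 to -2.12 ± 0.12 for DUSP4.

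The order of levels over the 4 treatments therefore differed between the genes. SPRY2, SPRY4 and DUSP6 ran from DMSO (highest) to E and then to DT and DTE, and DT and DTE did not differ by the test on the deposited scale, although SPRY2 was higher in DTE after either rescaling. For DUSP6 the neighbours DMSO and E did not differ either after quantile normalization. DUSP4 ran from DMSO to E, DT and DTE, and each neighbour in that order differed. DUSP5 ran from E to DMSO, DTE and DT, and each neighbour differed on the deposited scale, although DTE and DMSO did not after either rescaling.

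**Figure D3:**
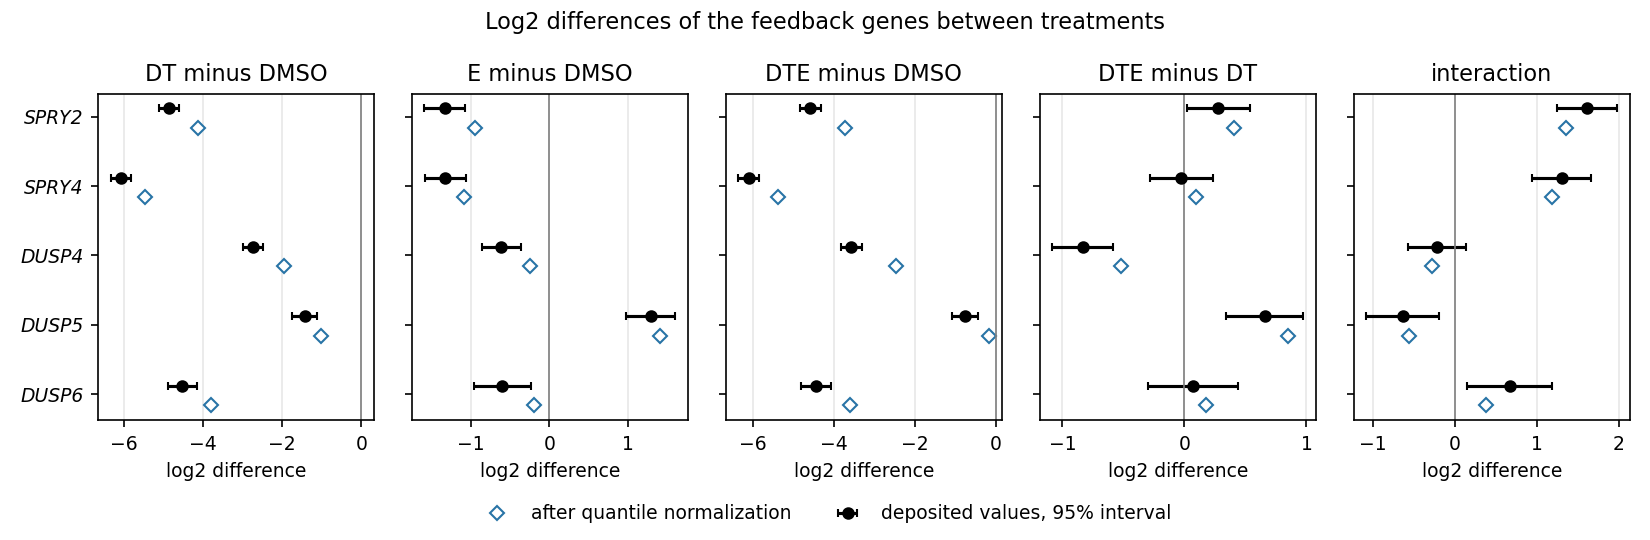
Log2 differences of the 5 genes in 4 comparisons and in the interaction, (DTE minus DT) minus (E minus DMSO). Black points are deposited values with 95% limma intervals (3 arrays per group) and open diamonds the values after quantile normalization. The DTE minus DT differences of SPRY4 and DUSP6 lie across 0, and the interactions of SPRY2 and SPRY4 lie at 1.61 and 1.30.

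The interaction asked whether the change with entinostat was the same with and without the MAPK inhibitors. SPRY2 and SPRY4 passed with positive values, in a test that 8% of genes passed, 4.84% lower and 3.16% higher (median -0.05). For SPRY2 the change with entinostat was 0.28 with the MAPK inhibitors and -1.33 without them, a difference of 1.61 ± 0.17 (adjusted p = 2.4e-05, quantile 1.36). For SPRY4 it was -0.03 with and -1.33 without, a difference of 1.30 ± 0.17 (adjusted p = 0.00019, quantile 1.18). DUSP6 had 0.67 ± 0.24 (adjusted p = 0.12), DUSP5 -0.64 ± 0.21 (adjusted p = 0.081) and DUSP4 -0.22 ± 0.16 (adjusted p = 0.51). DUSP5 and DUSP6 crossed the threshold under some of the alternatives listed at the end, and DUSP4 crossed it under none of them.

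Several of these genes had low signal on the arrays with MAPK inhibitors. SPRY2, SPRY4 and DUSP6 were below the array median in 17 of 18 values from DT and DTE arrays, and 17.6% to 39.7% of named genes were dimmer. DUSP4, whose interaction did not pass (-0.22 ± 0.16), had 57.9% to 70.9% of genes dimmer there. DUSP5, whose negative interaction did not pass (-0.64 ± 0.21), had 21.6% to 23.9% of genes dimmer in DT arrays and 35.1% to 41.1% in DTE arrays. If the changes in DT and in E had added on the log2 scale, SPRY2 would have stood at 3.29 in DTE, a level under which 6.61% to 8.59% of genes lay on those arrays, and SPRY4 at 3.76 (10.9% to 14.1%). The measured levels were 4.91 ± 0.06 for SPRY2 and 5.06 ± 0.04 for SPRY4 (SD, n = 3). The deposited table carries no detection call, and the part of the array's lower limit in these interactions was not tested.

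Likeness to each gene was measured as the root mean square difference in log2 change over the 9 treated arrays, each set against the mean of DMSO. For SPRY2 the nearest genes outside the 5 were ETV4 (0.33), ETV5 (0.48) and FOSL1 (0.73). For DUSP6 they were ETV5 (0.34), ETV4 (0.37) and NPPC (0.62). For SPRY4 they were ETV5 (1.22), ETV4 (1.34) and NPPC (1.39), so that no gene outside the 5 came nearer than 1.22 to its deeper fall. ETV4 and ETV5, ETS transcription factors of the PEA3 group, were thus among the 3 nearest for both Sprouty genes and DUSP6. ETV4 changed by -4.69 in DT, -1.01 in E and -4.27 in DTE, and ETV5 by -4.73, -0.61 and -4.69. SPRY2 and DUSP6 lay 0.57 apart, with 2 other genes nearer to each.

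DUSP4 and DUSP5 had other neighbours. KIAA1210 (0.29), MALT1 (0.29) and GNE (0.30) were nearest to DUSP4, and ICAM1 (0.25), TFCP2L1 (0.26) and NCEH1 (0.27) to DUSP5. ICAM1 showed the DUSP5 pattern with -1.49 in DT, 1.25 in E and -0.41 in DTE. Between DUSP4 and DUSP6 the distance was 1.17, with 346 genes nearer to DUSP4, and DUSP5 lay 2.10 or more from each of the other 4 genes.

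The neighbouring families did not all follow. Of 7 other phosphatases of the same MAP kinase family, 6 fell in DT against DMSO (median -0.62). Of all genes 66.2% fell (median -0.48). After quantile normalization 1 of the 7 fell and 1 rose (median -0.08), where 2139 of 14599 genes fell and 2075 rose. DUSP7, a cytoplasmic ERK phosphatase, fell on both scales (-1.21 ± 0.13, quantile -0.50). DUSP1, an early-response phosphatase, fell by 0.91 ± 0.11 and did not pass after quantile normalization (quantile -0.16). DUSP10, which acts on JNK and p38, did not pass at 0.17 ± 0.10 (quantile 0.85, which passed). In E against DMSO 3 of the 7 fell and 2 rose, where 37.2% of all genes fell and 10.4% rose. After quantile normalization 1 of the 7 fell and 2 rose, where 3128 of 14599 genes fell and 2651 rose. Those that rose were DUSP10 at 1.70 ± 0.10 (quantile 1.98) and DUSP1 at 0.41 ± 0.11 (quantile 0.76). DUSP10 also rose in DTE against DMSO (0.74 ± 0.10, quantile 1.91).

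SPRY3 was the only other Sprouty or SPRED gene of 5 listed that had a named row. It differed by -0.70 ± 0.11 in DT against DMSO (quantile -0.00, which did not pass) and by 0.72 ± 0.11 in E against DMSO (quantile 1.03). In DTE against DMSO its sign depended on the scale (-0.39 ± 0.11, quantile 0.79). Of 12 atypical dual-specificity phosphatases, which lack the ERK-docking domain, 9 fell in DT (median -0.64). That share was near the 66.2% of all genes (median -0.48). After quantile normalization 1 of the 12 was lower and 2 higher (median 0.06), where 2139 of 14599 genes were lower and 2075 higher. The largest fall on the deposited scale was DUSP12 at -1.23 ± 0.10 (quantile -0.45).

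**Figure D4:**
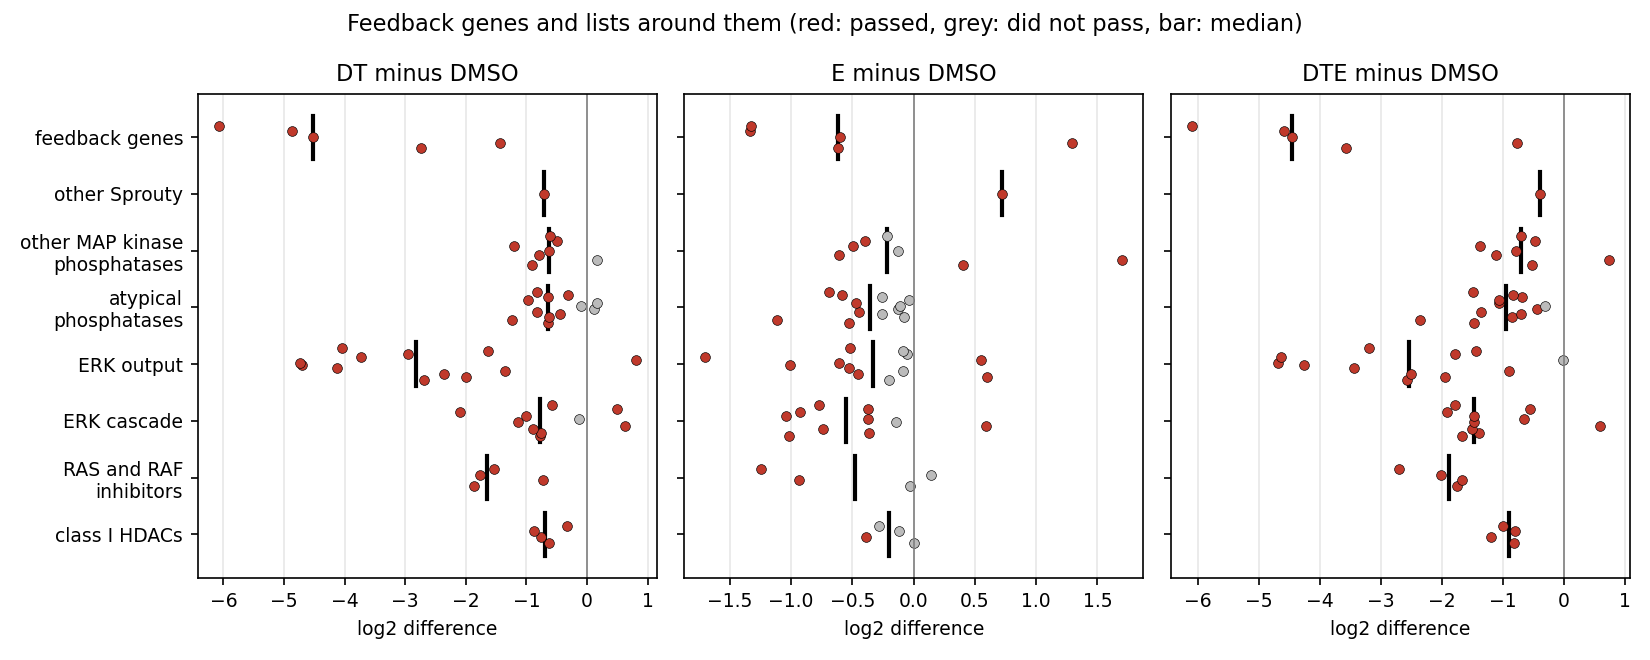
Log2 change against DMSO of the feedback genes and of 7 gene lists around them, with 1 point per gene on the deposited scale (red, passed; grey, did not pass; bar, median). The feedback genes and the ERK output list reach furthest to the left in DT and DTE, with medians of -4.52 and -2.82 in DT.

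Genes known as transcriptional output of ERK fell with the feedback genes. Of 12 measured outside the 5, 11 fell and 1 rose in DT against DMSO on both scales (median -2.82, quantile -2.11). Of all genes 66.2% fell and 2.97% rose (median -0.48), and after quantile normalization 2139 of 14599 fell and 2075 rose. ETV5, ETV4, ETV1 (-4.13 ± 0.15, quantile -3.39) and TRIB1, a pseudokinase (-4.04 ± 0.11, quantile -3.27), fell most. The gene that rose was FOS, an AP-1 subunit (0.81 ± 0.12, quantile 1.39), which is named after its value was seen. In E against DMSO 6 of the 12 fell and 2 rose (median -0.33), where 37.2% of all genes fell and 10.4% rose (median -0.20). After quantile normalization 2 of the 12 fell and 5 rose (median 0.05), where 3128 of 14599 genes fell and 2651 rose (median -0.04). FOSL1, another AP-1 subunit, fell most in E (-1.70 ± 0.15, quantile -1.31).

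The parts of the cascade that the feedback genes act on had a smaller median change. Of 10 measured genes from adaptors to ERK, 7 fell and 2 rose in DT against DMSO (median -0.77). That share of falls was near the 66.2% of all genes. After quantile normalization 3 of the 10 fell and 3 rose (median 0.01), where 2139 of 14599 genes fell and 2075 rose. SHC1, an adaptor downstream of receptors, fell by 2.10 ± 0.11 (quantile -1.40), and MAP2K1, which encodes MEK1, by 1.14 ± 0.11 (quantile -0.33). Of 4 other inhibitors of RAS, RAF or receptors, all fell in DT (median -1.65), where 66.2% of all genes did. After quantile normalization 3 of the 4 fell (median -0.89), where 2139 of 14599 genes did. The EGFR feedback inhibitor ERRFI1 fell on both scales (-1.86 ± 0.10, quantile -1.22). The class I deacetylase genes HDAC1, HDAC2, HDAC3 and HDAC8 had a median of -0.20 in E against DMSO, the same as all genes (-0.20). HDAC2 was lower (-0.39 ± 0.11, quantile -0.07, which did not pass), where 37.2% of all genes fell. After quantile normalization the median was 0.15 and 2 of the 4 were higher, where 2651 of 14599 genes rose (median -0.04).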

How the data were processed

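The deposited values are linear intensities, 1 per probe set and array, for which the submitters' processing notes name RMA and Transcriptome Analysis Console. Neither versions, genome build, scaling between arrays nor the use of the added ERCC spike-in is stated in the labels. The table has 29592 rows, 14783 with 1 gene symbol, 0 with several and 14809 with none. Symbols were updated through the RefSeq table of GRCh38.p14, giving 14599 genes, and the brightest row was kept for 169 genes with several. Log2 values of all 12 arrays were fitted with limma 3.58.1 in R 4.3.3 (a mean per group, eBayes, 8 residual and 7.68 prior degrees of freedom), and p-values were adjusted over all genes of a comparison. The number of arrays limits precision. The fit was tested on simulated data for DT against DMSO only, with few changed genes and no general shift. That test did not cover the scaling between arrays, low signal or the interaction. Promoters came from RefSeq. Genes named are the 5, their 3 nearest genes each, and, per list and comparison, up to 4 that passed with the largest change and 2 that did not with the lowest adjusted p. The members and lists were chosen with earlier results of these data known. Alternatives were quantile normalization, median subtraction, no dimmest 40% of genes, trend and robust variance, only the arrays compared, a replicate block, the mean of a gene's rows, and each array left out.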

Additional observations from a re-analysis of the deposited data

Results flagged for a closer look

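The change with entinostat differed between cells with and without the MAPK inhibitors for SPRY2 and SPRY4, by the interaction test. The interaction was 1.61 ± 0.17 for SPRY2 (limma adjusted p = 2.4e-05; 0.28 in DTE against DT and -1.33 in E against DMSO) and 1.30 ± 0.17 for SPRY4 (limma adjusted p = 0.00019; -0.03 in DTE against DT and -1.33 in E against DMSO). All 3 E arrays lay below all 3 DMSO arrays for both genes, whereas DTE and DT arrays overlapped. Both genes were dimmer than the array median in the DT and DTE arrays, except SPRY4 in DTE replicate 3, and the part of that low signal was not tested.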

How the results depend on the processing

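Of 660 values of a single gene under an alternative, 636 kept their sign and side of the threshold, 3 lost a call, 15 gained one and 6 changed sign, all 6 in DTE against DT. For SPRY4 that difference was 0.0947 after quantile normalization, 0.10 after median subtraction and -0.0683 to 0.0157 with an array left out. For DUSP6 it was -0.0785 to 0.31 with an array left out, being -0.02 without DT replicate 3, -0.02 without DTE replicate 1 and -0.0785 without DTE replicate 2. The calls lost were DUSP6 in E against DMSO and DUSP5 in DTE against DMSO, on the scales named above. For the interaction, 4 of the 5 genes passed rather than 2 after median subtraction (DUSP5 -0.60, DUSP6 0.70). The count was 4 without the dimmest 40% of genes, and 2 to 3 with an array left out. Calls over all genes rose too. After median subtraction 739 of 14599 genes were higher and 908 lower in the interaction. Without the dimmest 40%, 613 of 8760 were higher and 963 lower. The cause was not tested. DUSP5 passed in the interaction at -0.64 with trend and robust variance and at -0.56 after quantile normalization. It also passed at -0.76 without DMSO replicate 1 and at -0.75 without DTE replicate 2, and DUSP6 at 0.91 without DTE replicate 3. With the replicate number as a block, DUSP5 passed as well (-0.64, adjusted p = 0.046, with 0.024 to 0.19 over all alternatives), and no other call on the 5 genes changed. Whether the numbers pair arrays is not settled. After group means were removed, 2 of 18 same-number pairs had r over 0.1 across genes (-0.11 to 0.12). The median r was 0.03 for same-number pairs and -0.01 for pairs of other numbers. For 9 of 12 arrays the mean r with arrays of the other groups was highest for those of equal number. Over all genes 434 rose and 9660 fell in DT against DMSO, and 2075 and 2139 after quantile normalization. The same counts were 639 and 10840 against 3073 and 3737 for DTE against DMSO, 94 and 10602 against 1531 and 1821 for DTE against E, 462 and 706 against 901 and 929 for the interaction, 1513 and 5424 against 2651 and 3128 for E against DMSO, 1267 and 5933 against 2859 and 3507 for DTE against DT, and 1058 and 5755 against 3530 and 3014 for DT against E. After median subtraction 2586 rose and 4263 fell in DT against DMSO, 3301 and 6341 in DTE against DMSO, 1945 and 4944 in DTE against DT, 1787 and 4427 in DTE against E, and 4134 and 2977 in DT against E. The interaction needs all 4 groups, so a fit on only the arrays compared is the same fit and was not listed. SPRY2, SPRY4 and DUSP6 had 17.6% to 39.7% of named genes dimmer in DT and DTE arrays. DUSP5 had 21.6% to 23.9% dimmer in DT arrays. Whether low signal limited further falls of these genes was not tested.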

Other observations

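Around the feedback genes, entinostat given with the MAPK inhibitors left some ERK output genes higher than the inhibitors alone. Of the 12 output genes, 5 were higher and 2 lower in DTE against DT (median 0.15). Of all genes 8.68% were higher and 40.6% lower (median -0.23). After quantile normalization 8 of the 12 were higher and 2 lower (median 0.56), where 2859 of 14599 genes were higher and 3507 lower (median -0.04). IER3, an early-response gene linked to survival, was higher by 1.18 ± 0.12 (limma adjusted p = 6.9e-07, quantile 1.55) and TRIB1 by 0.85 ± 0.11 (limma adjusted p = 6.7e-06, quantile 1.14), while FOSL1 (-0.92 ± 0.15, quantile -0.82) and FOS (-0.83 ± 0.12, quantile -0.41) were lower. In the interaction 5 of the 12 were higher and 1 lower, in a comparison in which 3.16% and 4.84% of all genes were. ETV4 stood at 1.44 ± 0.17 (quantile 1.25), TRIB1 at 1.37 ± 0.15 (quantile 1.26) and IER3 at 1.24 ± 0.17 (quantile 1.31), against FOS at -1.37 ± 0.17 (quantile -1.18). ETV4 and TRIB1 were dim in DT arrays, at log2 levels of 4.94 ± 0.10 and 4.97 ± 0.08 (SD, n = 3) against array medians of 5.23 to 5.35, and the part of that low signal was not tested.

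Among the other MAP kinase phosphatases DUSP10 alone passed in the interaction, at -1.13 ± 0.15 (limma adjusted p = 0.00016, quantile -0.92). Its change with entinostat was 0.58 ± 0.10 with the MAPK inhibitors and 1.70 ± 0.10 without them. In the cascade the adaptor gene SHC1 had an interaction of 1.11 ± 0.16 (quantile 1.17) and SOS1, a RAS exchange factor, -0.67 ± 0.14 (quantile -0.67).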
